A study of Mus musculus with 4 samples.

Results

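The transcription factor genes Fos, Fosb, Fosl1, Fosl2, Jun, Junb, Jund, Atf3, Egr1 and Myc encode AP-1 subunits and other immediate early factors. They were compared between the mouse lines GC-2 and GC-1, both labelled as testicular germ cell lines. The genes were picked with earlier results of these data known, and no measured value enters the rule. Every gene probe that carried one of these symbols was taken, which gave 16 of the 56605 probes on the arrays and 10 of 37074 gene names. GC-2, also called GC-2(spd)ts, is a line of spermatocyte origin made with the large T antigen of SV40 and a temperature-sensitive p53. GC-1, also called GC-1(spg), is of type B spermatogonial origin and was made with large T antigen, so that both lines carry this viral oncogene. Each line was hybridised on 2 arrays. Both were grown in DMEM with fetal bovine serum and harvested near confluence, and no stimulation or time course is described. Each labelled stage of origin is represented by 1 transformed line, so that the line and the stage it came from cannot be told apart. Whether the 2 arrays of a line came from separate cultures is not stated, and the p-values below therefore rest on a spread that may be technical.

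AP-1 is a dimer of proteins with a basic region and a leucine zipper (bZIP). Jun proteins pair with each other or with Fos proteins, while Fos proteins need a Jun partner, and the make-up of the dimer sets which genes are activated and how strongly. Many of these genes are immediate early genes, whose transcription starts within minutes of a signal from MAP kinases or serum response factor and needs no new protein, whereas Jund is transcribed more steadily. In the mouse, loss of Jund impairs male fertility.

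The processed signal of each probe is given as log2 relative to the 75th percentile of its array, so that 0 is that percentile. Levels of different probes are not on 1 scale, and no member was ranked by its level against another. That percentile was a signal of 416 and 199.9 for GC-2, against 666 and 693 for GC-1, and 57.5% to 64.9% of probes stood well above background. Precision is limited by having 2 arrays per line. GC-2 lay in 1 row of the slide and GC-1 in the other, so that the row and the line cannot be told apart. On the normalized scale the 8 E1A spike-in probes, which read RNA added in the laboratory, were all higher in GC-2, by a mean of 2.07 log2 (SD 0.46 over 8 probes). Scaled to them, each difference below is lower by that amount. The median difference over all tested probes was 0.068 log2 as scaled here, 0.49 with normexp background correction, -0.25 with median centring and -2.0 with spike-in scaling. Of the calls, 52.7% were higher in GC-2 as scaled here, 66.4% with normexp, 39.0% with median centring and 5.32% with spike-in scaling. All differences are therefore relative to the bulk of the probes.

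The labelled cell type was checked against 9 germ cell markers. No array showed Dazl or Kit well above background. Sycp3 reached it on 1 GC-2 array and Stra8 and Sycp1 on 1 GC-1 array each, Ddx4 on 1 GC-2 array and both GC-1 arrays, and Zbtb16, Gfra1 and Uchl1 on all 4. Of the 4 tested, Gfra1 was higher in GC-2 by 4.52 ± 0.35 log2 (limma, adjusted p = 0.000653) and Uchl1 was lower by a difference of -2.20 ± 0.41 (adjusted p = 0.00932). Their summed signal was 4.17 and 4.25 times the 75th percentile in GC-2, against 23.1 and 10.6 times in GC-1, where nearly all of it came from Uchl1. Such sums are led by the brightest probe of a list. Gfra1 was dim in GC-1, at -5.09 and -4.87, where the lowest signals past the background flag were -6.38 and -6.04. Zbtb16 was dim in both lines, at -4.47 and -4.30 in GC-2 (lowest past the flag -5.58 and -4.69) and -4.66 and -4.49 in GC-1. Markers of other cell types also differed between the lines. All 5 mesothelial and epithelial markers (Krt18, Krt8, Krt19, Upk1b and Msln) were lower in GC-2, where their summed signal was 2.45 and 2.47 times the 75th percentile, against 689.6 and 819 times in GC-1. Of these, Krt8 was above background on no GC-2 array and has only a bound, at least 49.5-fold higher in GC-1. The 3 tested Leydig markers (Nr5a1, Cyp17a1 and Star) were higher in GC-2, at a sum of 12.6 and 14.6, against 0.366 and 0.3996 in GC-1, and Hsd3b1 was above background on no array. Of 4 tested Sertoli markers Gata4 was called higher and Wt1 and Fshr lower in GC-2, but Fshr was above background on no GC-2 array and so dim in GC-1 that it gave no bound on the fold. The sums were 5.27 and 5.72 in GC-2 against 137 and 109 in GC-1, nearly all of the GC-1 sum from Wt1, and Amh was above background on no array. Of 4 fibroblast and myoid markers 2 were higher and 1 was lower, with sums of 152 and 157 in GC-2 against 228 and 259 in GC-1. The part of these differences in the results below was not tested.

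The sequences below belong to members whose results are described further on. They hold no measured difference between the lines. The first set holds the 60-base probes that lie in the coding part of 3 transcripts which a probe nearer the 3′ end also reads. In Fosl2 and Junb the 2 probes differ in their result, and in Myc they do not. The sequences are those of the scanner files and read in the sense of the transcript, with positions on mm9.
Fosl2 coding probe, chr5:32455088-32455147, plus strand: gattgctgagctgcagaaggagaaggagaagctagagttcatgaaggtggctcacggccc
Junb coding probe, chr8:87501881-87501940, minus strand: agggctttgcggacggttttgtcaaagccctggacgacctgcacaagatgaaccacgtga
Myc coding probe, chr15:61820925-61820984, plus strand: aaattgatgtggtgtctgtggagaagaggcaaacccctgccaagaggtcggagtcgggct
The Fosl2 probe starts at base 738 of its transcript, the Junb probe at base 707 and the Myc probe at base 1407.

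The second set holds the 250 bases before the annotated start of 4 genes, from RefSeq (GRCm38.p6). Fosl2, Jund and Atf3 are the members lower in GC-2 for which the promoter table had an entry, and Junb is the member whose coding probe was higher. Capitals mark matches, on either strand, to TGANTCA (the AP-1 element), TGANNTCA (the form with 1 more base, bound by Jun and ATF dimers) and TGACG (the core of the CRE element, counted also where it lies in a longer element).
Fosl2 promoter, chr5:32136222-32136471, plus strand: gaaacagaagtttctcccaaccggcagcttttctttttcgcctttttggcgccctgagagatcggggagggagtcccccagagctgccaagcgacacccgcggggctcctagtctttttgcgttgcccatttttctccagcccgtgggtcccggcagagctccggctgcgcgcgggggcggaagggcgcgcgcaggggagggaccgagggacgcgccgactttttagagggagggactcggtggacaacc
Jund promoter, chr8:70697489-70697738, plus strand: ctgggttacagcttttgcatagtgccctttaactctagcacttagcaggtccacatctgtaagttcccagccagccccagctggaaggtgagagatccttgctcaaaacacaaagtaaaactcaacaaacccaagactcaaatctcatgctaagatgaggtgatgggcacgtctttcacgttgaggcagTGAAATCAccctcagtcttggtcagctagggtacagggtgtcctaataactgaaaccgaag
Atf3 promoter, chr1:191183334-191183583, minus strand: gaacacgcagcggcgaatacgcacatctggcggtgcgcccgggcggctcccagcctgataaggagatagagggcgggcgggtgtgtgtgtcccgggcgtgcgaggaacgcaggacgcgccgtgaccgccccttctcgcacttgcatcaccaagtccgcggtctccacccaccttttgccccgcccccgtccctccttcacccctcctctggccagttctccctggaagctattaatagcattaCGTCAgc
Junb promoter, chr8:84978749-84978998, minus strand: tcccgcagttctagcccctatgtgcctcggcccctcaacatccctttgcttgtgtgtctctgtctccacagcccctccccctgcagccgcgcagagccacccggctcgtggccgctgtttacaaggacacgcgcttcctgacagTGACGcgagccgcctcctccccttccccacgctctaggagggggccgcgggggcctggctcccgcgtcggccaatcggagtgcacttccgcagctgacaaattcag
Entries were found for 7 members, namely Atf3, Fos, Fosb, Fosl2, Jun, Junb and Jund. None of the 7 windows held TGANTCA, which 6.75% of 32851 promoters of this length held. TGANNTCA was found in Jun and Jund (11.9% of promoters) and TGACG in Atf3, Fos, Fosb and Junb (17.8%). The Jund match spans bases 61 to 54 before the start and the Atf3 match bases 7 to 3. Of other elements, TATAAA was found in Fos (12.4%), CCAAT in Jun and Junb (33.8%), and neither CACGTG, the E-box bound by Myc (6.02%), nor the CArG box, bound by serum response factor (1.47%), in any of the 7. A match describes letters in these windows and is not a shown binding site.

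Of the 16 probes 14 were tested, and the other 2 were above background on no array. Fosl1 and the coding probe of Junb were higher in GC-2, and both probes of Fosl2, Jund and Myc and the probe of Atf3 were lower. That is 9 of 14 tested probes past limma's threshold (adjusted p under 0.05 over all probes), where 45.7% of all tested probes passed. By direction, 7 of 14 were lower against 21.6% of all probes, and 2 of 14 were higher against 24.1%. With 1 probe per gene, the brightest, 4 of 10 members were lower against 25.7% of 17438 genes and 1 was higher against 18.3%. The 5 of 10 past the threshold in either direction lie close to the 44.1% of all genes. The median difference was -0.82 log2 over the 10 brightest probes and -0.13 over all genes. Without GC-2 replicate 1 the count of lower probes was 4, since Atf3 and both Myc probes no longer passed. With spike-in scaling 12 probes were lower and 0 higher.

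**Figure D1:**
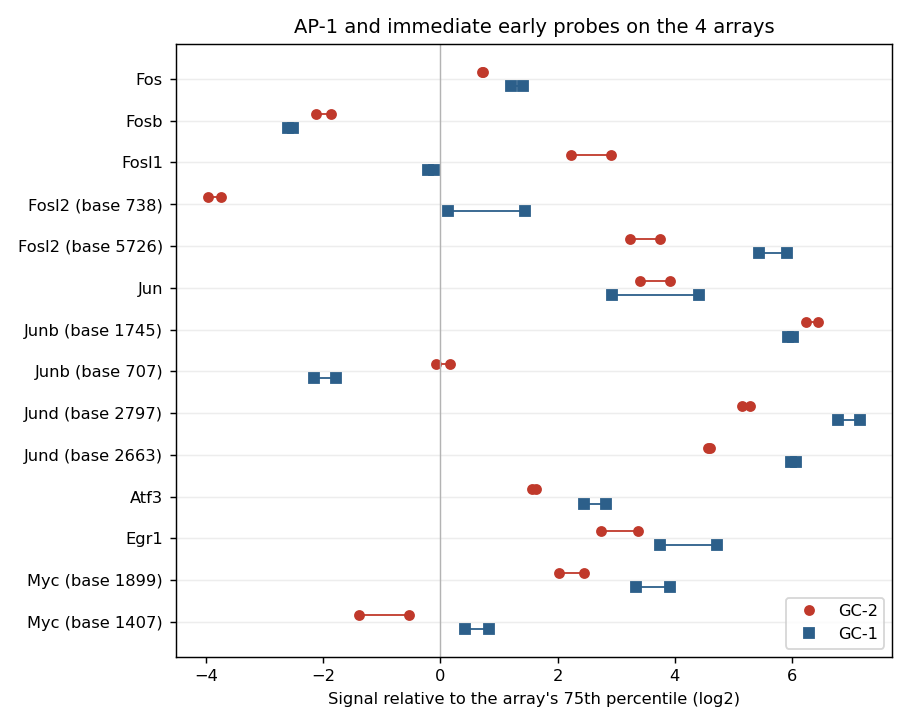
Normalized log2 signal of the 14 tested probes on the 2 GC-2 arrays (red circles) and the 2 GC-1 arrays (blue squares). Each row is a probe, with its first base in the transcript where a gene has several, and a line joins the arrays of a line. The GC-2 and GC-1 points overlap in the Jun row alone.

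Among the 10 members, the Fos family gave the largest differences in both directions. Fosl1 (Fra-1), a Fos protein without a strong activation domain whose level rises in many invasive and mesenchymal cells, stood at 2.23 and 2.92 in GC-2 and at -0.20 and -0.11 in GC-1. Its probe lies at chr19:5455496-5455555 (mm9) and gave signals of 1957 and 1509 in GC-2, against 578 and 642 in GC-1. Both GC-2 arrays were above both GC-1 arrays, also in the signals before scaling. The difference was 2.73 ± 0.31 log2 (SE, n = 2 arrays per line), or 6.64-fold higher in GC-2 (limma, adjusted p = 0.00188, 95% interval 1.97 to 3.50). With spike-in scaling it was 0.66, with an adjusted p of 0.0934.

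Fosl2 (Fra-2), the other Fos protein of this kind and known for its part in bone and cartilage, was lower in GC-2 on both of its probes. The probe nearer the 3′ end (chr5:32460076-32460135, base 5726) stood at 3.75 and 3.25 in GC-2, against 5.93 and 5.44 in GC-1. Its signals were 5611 and 1895 in GC-2 and 40521 and 30019.8 in GC-1. The 2 groups were separated by more than the distance between the arrays of either line, and the difference was -2.18 ± 0.31 log2, or 4.54-fold lower in GC-2 (limma, adjusted p = 0.00389, 95% interval -2.96 to -1.41). The coding probe stood at -3.74 and -3.97 in GC-2, against 1.44 and 0.13 in GC-1. In signal these were 31.1 and 12.8 in GC-2 and 1809 and 760.2 in GC-1, all well above background by the scanner's flag. Here the GC-1 arrays lay far apart, yet both were well above the GC-2 arrays. This difference was -4.64 ± 0.46 log2, or 25.0-fold lower in GC-2 (limma, adjusted p = 0.00131), and it was -2.74 with normexp background correction. The fall of Fosl2 thus had 1 direction on both probes and a size that depended on the probe and, for the coding probe, on the background correction.

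Fos, the founding member, which is induced and lost again within an hour or so of a stimulus, stood at 0.70 and 0.73 in GC-2 and at 1.21 and 1.41 in GC-1 (chr12:86818118-86818177). Both GC-2 arrays lay below both GC-1 arrays. The difference of -0.60 ± 0.23 log2 did not pass over all probes (limma, adjusted p = 0.0869, 95% interval -1.18 to -0.014), but it passed with median centring, at -0.91 (adjusted p = 0.0277). Fosb, which also gives the stable isoform known from neurons, stood at -2.13 and -1.86 in GC-2 and at -2.52 and -2.61 in GC-1 on its probe at chr7:19888168-19888227. Before scaling its signals were 95.3 and 54.9 in GC-2, against 116 and 113 in GC-1, so that the order of the lines depends on the scaling. The difference of 0.57 ± 0.24 log2 did not pass (limma, adjusted p = 0.105), and with spike-in scaling it was -1.50. A second Fosb probe, 1978 bases away at chr7:19890146-19890205, was above background on no array of either line.

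**Figure D2:**
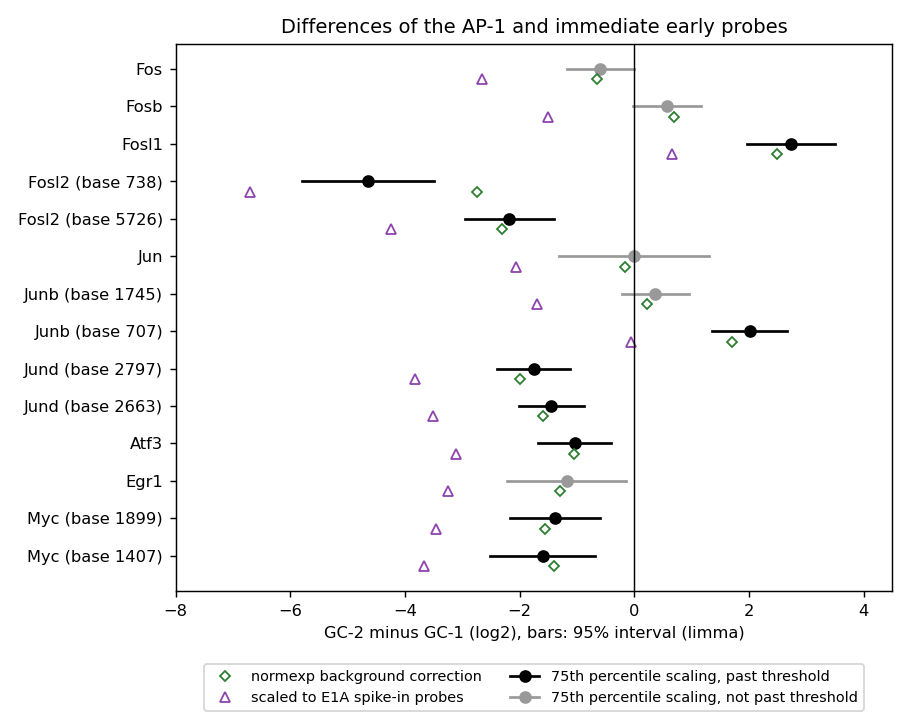
Difference of each tested probe in log2, GC-2 minus GC-1, with its 95% interval (black where past limma's threshold, grey where not), and the same difference with normexp background correction (green diamonds) and with spike-in scaling (purple triangles). As scaled to the 75th percentile, Fosl1 and the Junb probe at base 707 lie right of 0 and past the threshold. Fosb (0.57) and the Junb probe at base 1745 (0.37) lie right of 0 but not past it. Spike-in scaling puts Fosl1 at 0.66 and the Junb probe at base 707 at -0.059, and every other probe left of 0.

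Jun, the main partner of the Fos proteins and a driver of the cell cycle, showed no difference between the lines larger than the spread between arrays. Its probe (chr4:94716928-94716987) stood at 3.41 and 3.93 in GC-2 and at 2.94 and 4.41 in GC-1. The GC-2 arrays lay between the GC-1 arrays, which makes Jun the 1 member probe of 14 with groups that overlap. Over all tested probes the groups did not overlap in 76.9%, with 36.3% lower and 40.7% higher in GC-2, against 9 lower and 4 higher of the 14 member probes. The difference of Jun was -0.0048 ± 0.52 log2 (limma, adjusted p = 0.995), with a 95% interval of -1.31 to 1.30. Leaving out 1 array moved it between -0.74 (without GC-1 replicate 1) and 0.73 (with the other GC-1 array left out).

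Junb, which activates less strongly than Jun and can oppose it, gave results that differed between its probes. The probe near the 3′ end (chr8:87500843-87500902, base 1745) stood at 6.25 and 6.46 in GC-2 and at 5.95 and 6.03 in GC-1. Its signals were 31561 and 17553 in GC-2 and 41036 and 45128 in GC-1, so that the scaling sets which line is higher. The difference of 0.37 ± 0.23 log2 did not pass (limma, adjusted p = 0.251) and was -1.70 with spike-in scaling. The coding probe printed above stood at -0.075 and 0.15 in GC-2, against -1.78 and -2.16 in GC-1. There the GC-2 arrays were higher also in signal, with 395 and 222 in GC-2 against 194 and 155 in GC-1. The difference of 2.01 ± 0.26 log2, or 4.02-fold higher in GC-2, passed (limma, adjusted p = 0.00295, 95% interval 1.36 to 2.66), but with spike-in scaling it was -0.059. Averaged over both probes Junb was 1.19 log2 higher in GC-2 (adjusted p = 0.0104), and in the authors' log2 values it was 1.14 higher (limma, adjusted p = 0.0418). The third probe of that name (chr8:87496635-87496694) reads a clone sequence, lies nearer to a probe of Prdx2 (1518 bases) than to one of Junb (4208 bases), and was above background on no array.

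Jund, the Jun protein that slows growth in many cells and whose loss impairs male fertility in mice, was lower in GC-2 on both probes. The first (chr8:73224436-73224495) stood at 5.15 and 5.29 in GC-2, against 7.17 and 6.80 in GC-1. The second (chr8:73224302-73224361) stood at 4.61 and 4.56 in GC-2 and at 5.99 and 6.08 in GC-1. On both, the gap between the lines was several times that between the arrays of a line. The differences were -1.76 ± 0.25 and -1.45 ± 0.23 log2, or 3.38-fold and 2.73-fold lower in GC-2 (limma, adjusted p = 0.00412 and 0.00522). Jund was the Jun family gene called lower on each tested probe. No probe of Jun or Junb was called lower as scaled here, but Jun (-2.07) and the Junb probe near the 3′ end (-1.70) were with spike-in scaling, and the difference between these genes was not tested.

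Atf3, a stress-induced bZIP protein that pairs with Jun proteins and often represses, was lower in GC-2. Its probe (chr1:192994547-192994606) stood at 1.63 and 1.56 in GC-2, against 2.83 and 2.45 in GC-1, with signals of 1287 and 589 in GC-2 and 4727 and 3773 in GC-1. Both GC-2 arrays lay below both GC-1 arrays. The difference was -1.04 ± 0.25 log2, or 2.06-fold lower (limma, adjusted p = 0.0216). It no longer passed without GC-1 replicate 1 (adjusted p = 0.0912), without GC-2 replicate 1 (0.0637) or without GC-2 replicate 2 (0.0828), nor with no filter on dim probes (0.0616) or in the authors' log2 values (0.0631).

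Egr1, a zinc finger factor that binds GC-rich sites and is induced together with Fos, stood at 2.74 and 3.37 in GC-2 and at 3.75 and 4.73 in GC-1. Its signals were 2788 and 2069 in GC-2 against 8971 and 18366 in GC-1. Both GC-2 arrays were the lower ones, but the GC-1 arrays were far apart, and the difference of -1.18 ± 0.42 log2 did not pass (limma, adjusted p = 0.0655, 95% interval -2.22 to -0.14). It passed with normexp (-1.30, adjusted p = 0.0106), with median centring (-1.50, adjusted p = 0.0188) and over probes above background on all 4 arrays (adjusted p = 0.0446), and with the replicate number as a block (adjusted p = 0.0150). It did not pass with any 1 array left out, and moved to -0.69 without GC-1 replicate 2 (adjusted p = 0.240) and to -0.87 without GC-2 replicate 1 (adjusted p = 0.217). Of its corepressors, Nab2 stood at a difference of 0.39 ± 0.25 log2 (limma, adjusted p = 0.253), and Nab1 had no probe.

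Myc, a helix-loop-helix factor that pairs with Max and drives growth and ribosome production, was lower in GC-2 on both probes. The one near the 3′ end (chr15:61821417-61821476) stood at 2.03 and 2.45 in GC-2, against 3.33 and 3.92 in GC-1, and the coding probe at -1.40 and -0.54 in GC-2, against 0.83 and 0.42 in GC-1. The lines did not overlap on either probe. The differences were -1.38 ± 0.31 and -1.60 ± 0.37 log2, or 2.61-fold and 3.02-fold lower in GC-2 (limma, adjusted p = 0.0170 and 0.0178). For the probe near the 3′ end the adjusted p was 0.0777 without GC-1 replicate 2 and 0.0681 without GC-2 replicate 1. For the coding probe it was 0.105 without GC-1 replicate 1, and it was 0.0589 with the other GC-1 array left out and 0.0546 with GC-2 replicate 1 left out.

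For Fosl2, Junb, Jund and Myc 2 tested probes of the gene could be set side by side. In each of the 4 the brightest probe was the one nearest the 3′ end. The differences of the upstream and the downstream probe lay 0.31 log2 apart in Jund (134 bases between probes) and 0.21 apart in Myc (492 bases), with intervals that overlap. They lay 1.64 apart in Junb (1038 bases) and 2.46 apart in Fosl2 (4988 bases), with intervals that do not overlap. Junb had the higher value on the upstream probe, and Fosl2 the lower. Over the first and last tested probe of each transcript that had several, the upstream probe tended to give the higher value in GC-2 relative to GC-1, by a median of 0.12 log2 in 611 pairs up to 300 bases apart, 0.48 in 1651 pairs up to 1000 bases, 0.74 in 1840 pairs up to 3000 bases and 1.25 in 813 pairs farther apart. The Junb gap runs in this direction and the Fosl2 gap against it. Taken without their sign, both gaps were smaller than the 90th percentile of gaps at their distance, which was 2.77 for pairs of 1000 to 3000 bases and 3.50 beyond. With its sign, Fosl2 stood at -2.46, where the median of pairs that far apart was 1.25. Its place among the signed gaps was not tested. The labelling started from oligo-dT at the 3′ end of the transcripts, and the part of this trend in the Junb result was not tested.

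**Figure D3:**
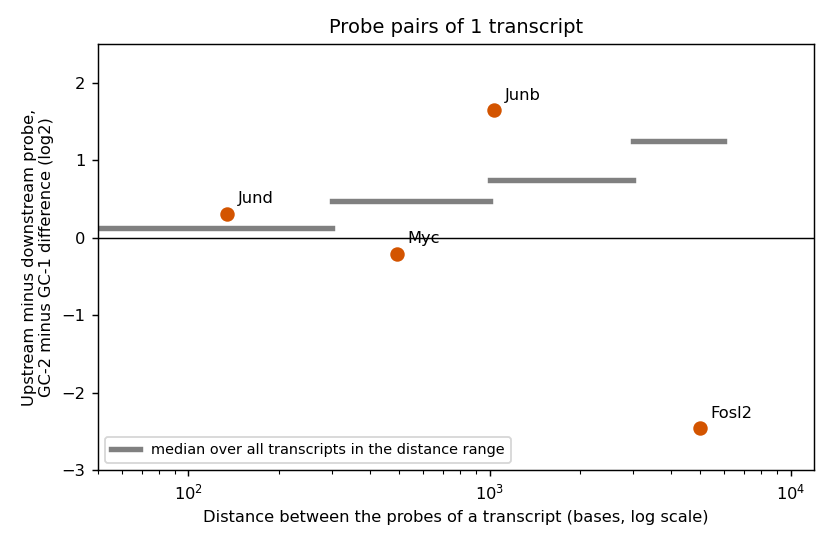
Upstream minus downstream probe in the GC-2 minus GC-1 difference (log2), against the distance between the probes in bases on a log scale, for the 4 genes with several tested probes. Grey bars give the median over all transcripts in each distance range. Junb lies above 0 at 1.64 and Fosl2 below it at -2.46, while the grey medians climb with distance, to 1.25 beyond 3000 bases.

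The arrays of a line agreed less well for some members than for most probes. Between the GC-1 arrays the median gap over the 14 member probes was 0.38 log2, against 0.30 over all tested probes. Between the GC-2 arrays it was 0.25, against 0.28 over all. In GC-1 the gap was 1.47 for Jun, 1.31 for the Fosl2 coding probe and 0.98 for Egr1, all above the 90th percentile of 0.87, while no member probe exceeded that of GC-2 (0.90). Jun and Egr1 were higher on GC-1 replicate 2 and Fosl2 on GC-1 replicate 1, so that the members did not move to 1 side. Of 31 other immediate early genes 15 were higher on GC-1 replicate 2, as were 7938 of 17438 genes overall.

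The partners, inducers and target genes were described from 7 lists of 135 genes, with each gene read by its brightest tested probe. Among 18 tested bZIP proteins that can pair with AP-1 subunits 2 were higher and 5 lower in GC-2, where 18.3% of all genes were higher and 25.7% lower, so that the lower share was near that of all genes. The median difference was -0.33 log2 beside -0.13 over all genes. The Maf family gene Maf fell by 2.28 ± 0.35 log2 in GC-2. Nfe2l2, which encodes the antioxidant regulator NRF2, fell by 1.98 ± 0.28. The CREB relative Atf7 rose by 1.62 ± 0.40. With 1 array left out, whichever it was, 0 or 1 of these genes were higher.

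Other immediate early genes were mostly lower or short of the threshold, with 2 higher and 15 lower of 31 tested and a median difference of -0.96 log2, against 18.3% higher and 25.7% lower among all genes and a median of -0.13. Klf2, a Krüppel-like factor, stood at 2.58 and 2.33 in GC-2, against 7.15 and 6.97 in GC-1, a fall of 4.60 ± 0.24 log2 (limma, adjusted p = 0.000238). Ccn2, a matrix protein gene that responds to TGF-beta and YAP, stood at 2.67 and 1.73 in GC-2, against 6.41 and 6.47 in GC-1, and fell by 4.24 ± 0.36 (adjusted p = 0.00085). The nuclear receptor gene Nr4a2 went the other way, at 1.48 and 1.53 in GC-2 against -1.07 and -2.21 in GC-1, a rise of 3.15 ± 0.41 (adjusted p = 0.00304). Egr4 was above background on no array. Between 11 and 14 of the list were lower with 1 array left out, and 1 was higher without GC-1 replicate 1 or without GC-2 replicate 2.

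Of 24 upstream genes, the MAP kinases, their Ras and Raf activators and serum response factor with its partners, 4 were higher and 7 lower, both near the 18.3% and 25.7% of all genes, with a median of -0.22 log2 beside -0.13. Hras, which encodes a Ras protein, rose by 2.15 ± 0.24 log2. Mapk3, the gene of the kinase ERK1, rose by 1.73 ± 0.23. limma's adjusted p was 0.00181 for Hras and 0.00334 for Mapk3. Without GC-1 replicate 1 the list had 2 higher and 2 lower genes, and without GC-2 replicate 2 it had 3 higher and 4 lower.

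Among 24 tested genes with AP-1 sites described in their control regions 4 were higher and 9 lower in GC-2, with a median of -0.38 log2 beside -0.13 over all genes. The higher count is near the 18.3% of all genes, and the lower one stands beside 25.7%. The growth factor gene Ereg fell by 5.22 ± 0.49 and the collagenase gene Mmp13 by 3.49 ± 0.29 log2, while the membrane-bound protease gene Mmp14 rose by 2.75 ± 0.24 (limma, adjusted p between 0.000754 and 0.00111). The matrix proteases therefore differed in direction among themselves, and Mmp9 was above background on no array. Without GC-1 replicate 1 the count of higher genes was 2.

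In the Myc network 4 of 12 genes were higher, beside 18.3% of all genes, and 3 lower, near the 25.7% of all genes. The median of -0.11 log2 was also near the -0.13 over all genes. Mxd4 and Mxd3, which encode repressors that compete with Myc for Max, rose by 1.81 ± 0.25 and 1.26 ± 0.30 log2, and Mlxip, whose product pairs with Mlx, fell by 1.66 ± 0.23. Mycn, the close relative of Myc and 1 of the 3 lower genes, passed the filter through its GC-1 arrays alone. It was above background on no GC-2 array and at least 27.6-fold higher in GC-1, where it stood at -0.44 and -0.26. Such a bound sets the brighter line against the lowest signal that passed the background flag on each array of the dimmer line. The count of higher genes was 1 without GC-2 replicate 2 and 2 without any 1 of the others. Of 20 genes with described Myc sites 3 were higher, near the 18.3% of all genes, and 1 lower, beside 25.7%, with a median of 0.054. Polr1b, a subunit of RNA polymerase I, rose by 1.78 ± 0.28, the spermidine synthase gene Srm by 1.41 ± 0.27 and the mitochondrial serine enzyme gene Shmt2 by 1.22 ± 0.23. Without GC-1 replicate 2 none of the 20 was lower. With spike-in scaling 1 gene was higher over all these lists, an immediate early gene, and 120 of 130 tested were lower.

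**Figure D4:**
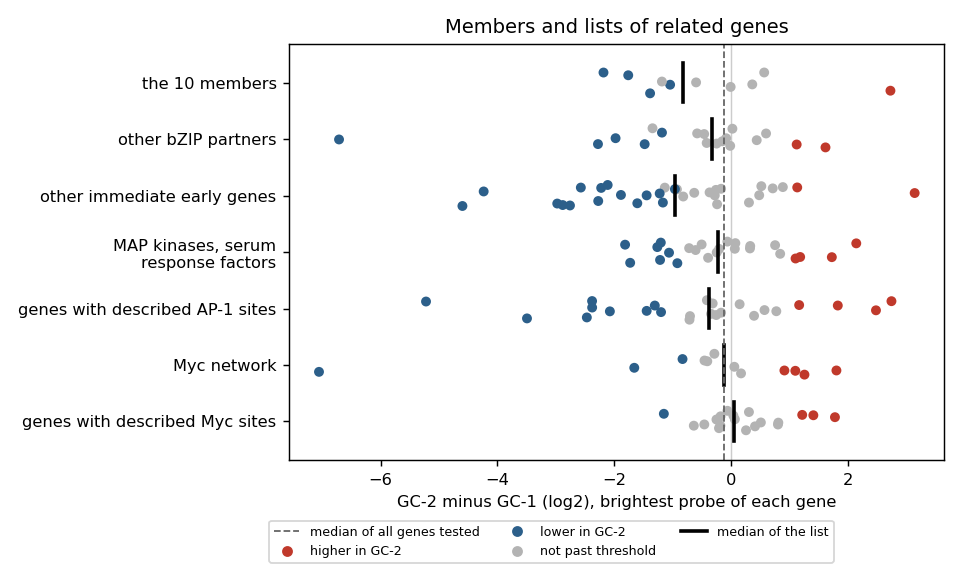
Difference of each gene's brightest tested probe in log2, GC-2 minus GC-1, for the 10 members and 6 lists of related genes, coloured by limma's call, with the median of each list (black bar) and of all genes (dashed line at -0.13). The medians run from -0.96 for the other immediate early genes to 0.054 for the genes with described Myc sites, as scaled to the 75th percentile. The points at the far left of the bZIP and Myc network rows have only a bound in GC-2.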

How the data were processed

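Total RNA of GC-2 (2 samples) and GC-1 (2 samples) was labelled with Cy3 from an oligo-dT primer and hybridised to Agilent 1-colour mouse arrays, per the labels' protocols. Per the file headers, Agilent Feature Extraction 11.5.1.1 made the deposited scanner tables, which hold a processed intensity per spot (after background subtraction, with no scaling between arrays), mean and background intensities, and 0/1 flags (spot well above background, saturated, irregular). The authors also deposited 1 log2 value per gene name and array. For the 10 members these equalled the mean log2 intensity of the gene's probes above background plus 1 constant per array, within 0.0089. Their column medians were -3.64 and -3.53 in GC-2 and -3.78 and -3.67 in GC-1, and the sources used here do not give how they were scaled between arrays.

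Spots of a probe were averaged, leaving out control spots and 92 to 224 irregular spots per array. No spot was saturated. The log2 values were centred on the array's 75th percentile. Probes with a value on all 4 arrays that passed the background flag on both GC-2 or both GC-1 arrays were tested, 36693 in all. limma 3.58.1 under R 4.3.3, with lmFit and a two-sided eBayes test of GC-2 minus GC-1, was fitted over all of them with Benjamini-Hochberg adjustment at 0.05, and tested on simulated data. Each gene was read from the brightest of its tested probes. Against RefSeq genes 32994 probes matched by accession, 10224 by symbol and another 523 by a synonym, and the remaining 12864 kept the files' own name. Probe positions are those of the files, on mm9.

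The members and lists were chosen with earlier results of these data known. All probes of the 10 members are reported. From each list the 3 genes with the largest changes past the threshold and above background on all 4 arrays are named, and any gene with only a bound in 1 line. The rule also named genes with values near those of 1 member, which are not reported because they rest on levels of different probes. Of the genes this rule names, 2 are not reported here singly but are counted in their lists. Alternatives were normexp background correction (offset 50), quantile normalization, median centring, spike-in scaling, no filter on dim probes, probes above background on all 4 arrays, the replicate number as a block, each array left out, the mean of a gene's probes and the authors' log2 values. Both lines were on 1 slide with 1 scan.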

Additional observations from a re-analysis of the deposited data

How the results depend on the processing

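With 2 arrays per line the number of arrays limits what can be called, and with 2 against 2 an exact permutation test could not give a p under 0.333. Fosl2 and Jund kept their direction and their call under every alternative run, on each of their probes, and Fosl1 under every one but spike-in scaling. Scaled to the spike-in probes, 0 member probes were higher and 12 lower, and over all probes 1680 were higher and 29908 lower, against 8845 and 7935. The differences then were -2.66 for Fos, -1.50 for Fosb, 0.66 for Fosl1 (no longer past the threshold), -2.07 for Jun, -1.70 for Junb, -0.059 for the Junb coding probe and -3.25 for Egr1, lower than before by the amount by which the spike-in probes were higher in GC-2. With median centring Fos passed at -0.91 and Egr1 at -1.50, with normexp Egr1 passed at -1.30, and with quantile normalization Jun was 0.27, and the cause was not tested. Egr1 also passed, at -1.18, over the smaller set of probes above background on all 4 arrays. Atf3 no longer passed at -1.04 with no filter on dim probes, where more probes were tested, or at -1.09 in the authors' log2 values. Junb passed at 1.19 over the mean of its probes and at 1.14 in the authors' log2 values, which average the same probes. Leaving out 1 array at a time left 5755 to 7401 probes higher and 4930 to 6168 lower, and 2 member probes higher and 4 to 6 lower. It put Jun between -0.74 and 0.73, Atf3 between -1.23 and -0.85, and Myc between -1.68 and -1.09. With spike-in scaling 1 gene was higher and 120 of 130 were lower over the related lists, 0 and 17 of them among the bZIP partners. The ranges that follow leave spike-in scaling out and cover the other scalings, the filters and the block. They were 1 to 3 higher and 5 to 6 lower for the bZIP partners. For the immediate early genes they were 1 to 4 and 13 to 17, and for the upstream genes 3 to 6 and 5 to 10. The AP-1 site genes had 3 to 4 and 8 to 10. The Myc network had 2 to 4 and 2 to 3, and the Myc site genes 3 to 4 and 1 to 3.

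The labels name no pairing of the arrays. Over the tested probes, the deviations of same-numbered arrays from their line means correlated by 0.124. Arrays of the same number also shared a slide column, so that number and column cannot be told apart. Whether the arrays were paired was not tested. With the number as a replicate block 9133 probes were higher and 8200 lower, and Egr1, at -1.18, had an adjusted p of 0.0150, while no other member changed its call.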
